A study of Mus musculus with 8 samples.

Results

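Semaphorins are secreted or membrane-bound guidance signals, plexins are their receptors, and neuropilins are co-receptors for the secreted semaphorins. All 31 listed genes of these families, 20 semaphorins, 9 plexins and 2 neuropilins, were found among 20943 genes in a table of quantile-normalized log2 gene counts. The table holds RNA sequencing of 8 malignant peripheral nerve sheath tumors (MPNST) of mice, a nerve sarcoma thought to arise from Schwann cells. The 3 PRC2 loss tumors came from mice with Eed f/f, Cdkn2a f/f and Nf1 f/f alleles and the Plp-CreERT transgene. The 5 PRC2 wildtype tumors came from mice with Cdkn2a f/f and Nf1 f/f alleles and the same transgene. All mice received tamoxifen (0.4 mg) on days 0 to 3 of life, so floxed Nf1 and Cdkn2a were shared by both groups and floxed Eed was carried by the PRC2 loss group only. The Eed protein is an essential part of Polycomb repressive complex 2 (PRC2), which places a repressive mark on histone tails. Plp-CreERT is a tamoxifen-dependent recombinase driven by the Plp promoter, which is active in Schwann cells. The labels used here give no age at collection. PRC2 loss tumor 1 was labelled as from the right paraspinal nerve, and PRC2 loss tumors 2 and 3, both under animal number 7, as from the sciatic nerve of the left and of the right side. The wildtype labels name no nerve, with tumors 1 and 2 under animal number 8, tumors 3 and 4 under number 9 and tumor 5 under number 11. If a shared number means a shared mouse, the groups hold 2 PRC2 loss and 3 wildtype mice, and the p-values below are too small.

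A semaphorin opens its plexin, and the plexin then switches off small GTPases of the Rap and Ras families inside the cell and remodels the actin skeleton. Secreted class 3 semaphorins mostly need a neuropilin beside an A plexin, class 4 semaphorins mostly bind B plexins, and class 5 and class 6 semaphorins bind plexins without a neuropilin. In nerves these proteins steer axons, Schwann cells and blood vessels.

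PRC2 in mammals acts mainly at promoters rich in CG dinucleotides, so promoter sequences are shown for the 5 called genes with the largest differences between the groups whose window held at most 30 bases of annotated exon. Each is the 250 bases before a RefSeq transcript start in GRCm38.p6, read 5′ to 3′ on the plus strand, which is the coding strand of all 5 genes, with CG dinucleotides in capitals. The windows are chr5:13396534-13396783 for Sema3a, chrX:73756853-73757102 for Plxnb3, chr14:31217623-31217872 for Sema3g, chr3:95160170-95160419 for Sema6c and chr15:32244563-32244812 for Sema5a.
Sema3a: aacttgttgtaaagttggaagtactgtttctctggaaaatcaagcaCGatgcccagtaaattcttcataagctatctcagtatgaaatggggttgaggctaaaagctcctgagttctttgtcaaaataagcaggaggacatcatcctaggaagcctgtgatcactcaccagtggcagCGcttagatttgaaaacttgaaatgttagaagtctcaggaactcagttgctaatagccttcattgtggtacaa
Plxnb3: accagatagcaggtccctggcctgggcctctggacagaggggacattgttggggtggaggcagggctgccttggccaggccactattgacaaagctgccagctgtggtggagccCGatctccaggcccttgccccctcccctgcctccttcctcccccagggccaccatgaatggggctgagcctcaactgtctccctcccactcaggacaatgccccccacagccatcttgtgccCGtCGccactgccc
Sema3g: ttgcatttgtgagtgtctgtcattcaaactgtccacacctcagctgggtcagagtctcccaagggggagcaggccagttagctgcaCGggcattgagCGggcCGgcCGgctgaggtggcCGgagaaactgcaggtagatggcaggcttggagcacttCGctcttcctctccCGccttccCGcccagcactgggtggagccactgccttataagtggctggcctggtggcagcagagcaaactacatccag
Sema6c: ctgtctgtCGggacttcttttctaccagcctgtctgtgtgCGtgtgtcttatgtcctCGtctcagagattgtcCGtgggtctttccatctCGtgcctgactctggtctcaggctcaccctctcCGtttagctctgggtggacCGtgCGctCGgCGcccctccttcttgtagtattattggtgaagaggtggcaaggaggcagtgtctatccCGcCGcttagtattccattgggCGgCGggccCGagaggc
Sema5a: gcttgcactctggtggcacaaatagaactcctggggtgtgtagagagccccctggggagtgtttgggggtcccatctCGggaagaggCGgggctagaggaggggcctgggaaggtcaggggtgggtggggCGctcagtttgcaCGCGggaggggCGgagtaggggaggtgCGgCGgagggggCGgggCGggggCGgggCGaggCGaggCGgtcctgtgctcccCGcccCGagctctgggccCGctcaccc
Sema3a, the gene of this set that was lower in PRC2 loss tumors, had the fewest CG dinucleotides with 2, and 81.2% of the 32841 RefSeq windows of this length had as many or more. Among the genes that were higher, Plxnb3 had 3, Sema3g 8, Sema6c 15 and Sema5a 17, and 23.5% of all windows had as many as Sema5a or more. The median over all windows was 6. Of the lower genes not printed, Sema4b had 20 and 23 in its 2 windows and Plxnb2 had 20 and 13. The Sema6c window belongs to the first of 2 listed starts, and the window of the second held 0. The Sema3a window belongs to the 1 listed start, and the annotated gene begins upstream of it at position 13125414 of chromosome 5.

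Eed, measured first because its deletion defines the groups, had a log2 level of 8.89 ± 0.11 (SD, n = 3) in PRC2 loss tumors and 10.25 ± 0.08 (SD, n = 5) in wildtype tumors. It was lower in 3 of 3 PRC2 loss tumors, with a log2 difference of -1.36 (SE 0.11, limma adjusted p = 0.00021). Its exons overlap a gene on the opposite strand over 6.82% of their length. The exact two-sided permutation test over the tumors gave p = 0.0179, the smallest value it can give with these group sizes. The other engineered genes, Nf1 and Cdkn2a, did not pass with all tumors, at limma adjusted p-values of 0.452 for Nf1 and 0.351 for Cdkn2a. Without PRC2 loss tumor 3, the log2 difference of Cdkn2a was 3.09, and it passed (limma adjusted p = 0.00104). The table holds no read counts, so depth is unknown. The number of genes listed at 0 lay between 1822 and 2113 in PRC2 loss tumors and between 2686 and 3372 in wildtype tumors. None of the 31 genes was at 0 in any tumor.

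Of the 20 semaphorins, 10 rose in PRC2 loss tumors, 2 fell and 8 did not pass the test, and the largest difference was the fall of Sema3a. Of all 31 genes, 13 rose and 3 fell in PRC2 loss tumors relative to wildtype at a limma adjusted p below 0.05, and 15 did not pass. The 13 that rose are 41.9% of the genes, beside 16% of all 20807 genes tested. The 3 that fell are 9.68%, beside 19.6% of all genes, and in either direction 35.7% of all genes were called. The median log2 difference was 0.68 over the 31 genes and -0.12 over all genes. The 3 PRC2 loss values and the 5 wildtype values did not overlap for 17 genes, 14 of them higher in PRC2 loss, beside 38.3% of all genes in either direction, 16.9% in the higher and 21.4% in the lower direction. Centring the tumors on 15 housekeeping genes moved the median difference of all genes to 0.42 and the calls over all genes to 7056 higher and 1690 lower, against 3337 higher and 4087 lower as deposited. Under that centring 18 of the 31 genes were higher and 1 was lower. In bulk tumors, fewer cells of a type and less RNA per cell cannot be told apart.

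**Figure D1:**
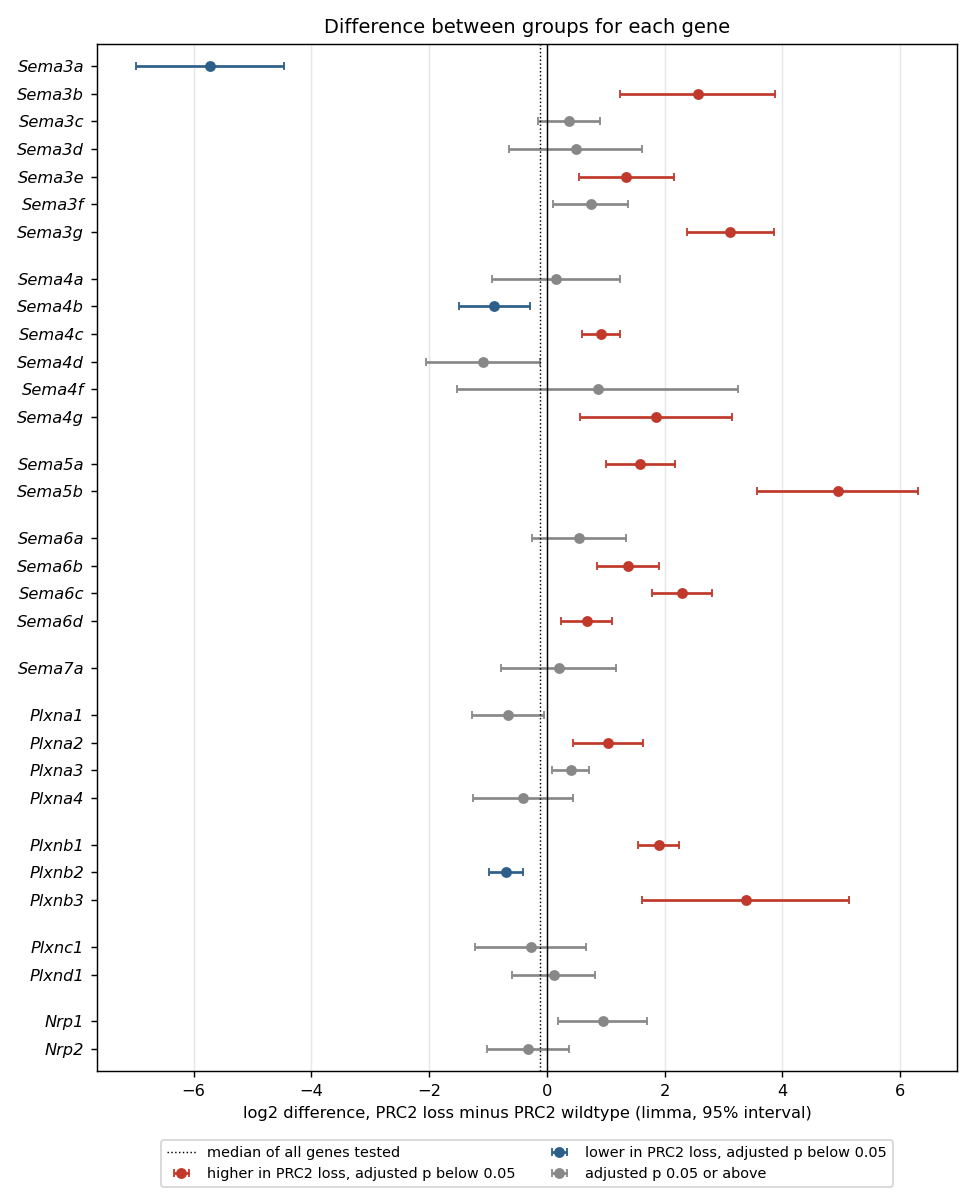
Log2 difference of each of the 31 genes, PRC2 loss minus PRC2 wildtype, with its 95% interval, marked by whether it passed the limma test. Sema5b at 4.94 and Sema3a at -5.72 lie at the ends, and 17 of the 20 semaphorins lie to the right of 0, of which 10 passed the test.

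Class 3 semaphorins are secreted. Sema3a, the classic repellent of sensory axons, had log2 levels of 7.41, 7.72 and 6.89 in PRC2 loss tumors 1 to 3, against 12.64, 11.57, 14.04, 14.03 and 13.03 in wildtype tumors 1 to 5. All 3 PRC2 loss tumors lay far below every wildtype tumor, and the wildtype values themselves spread over more than 2 log2 units. The difference was -5.72 (SE 0.55, limma adjusted p = 0.000325), a level 52.7-fold lower in PRC2 loss tumors. It was the largest difference in either direction among the 31 genes.

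Sema3b, a secreted semaphorin described as a growth suppressor in human lung cancer, moved the other way. Its log2 levels were 13.01, 13.14 and 12.36 in PRC2 loss tumors, against 11.16, 11.72, 9.53, 9.74 and 9.26 in wildtype tumors. The groups did not overlap, and within the wildtype group tumors 1 and 2 were the highest. The difference was 2.56 (SE 0.58, limma adjusted p = 0.0101), a 5.89-fold higher level in PRC2 loss tumors. Sema3g, which is known from blood vessels and binds Nrp2, had log2 levels of 11.29, 11.16 and 11.55 in PRC2 loss tumors, against 8.82, 8.44, 8.45, 7.27 and 8.09 in wildtype tumors. Every PRC2 loss tumor was above every wildtype tumor by more than 2 log2 units. The difference was 3.11 (SE 0.32, limma adjusted p = 0.000436), or 8.66-fold.

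Sema3e differs from its class in binding Plxnd1 without a neuropilin. It had log2 levels of 9.14, 8.99 and 8.13 in PRC2 loss tumors, against 7.31, 8.10, 7.11, 6.87 and 7.64 in wildtype tumors. PRC2 loss tumor 3 lay only just above wildtype tumor 2. The difference of 1.35 (SE 0.36, limma adjusted p = 0.0193) did not pass without PRC2 loss tumor 1 (1.15, adjusted p = 0.077) or without PRC2 loss tumor 2 (1.23, adjusted p = 0.0754), nor with the tumors of an animal number averaged (1.41, adjusted p = 0.0526).

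The remaining class 3 genes did not pass with all tumors. Sema3c, which guides neural crest cells in the developing heart, averaged 11.18 ± 0.36 on the log2 scale in PRC2 loss tumors and 10.80 ± 0.34 in wildtype tumors (SD, n = 3 and 5), a difference of 0.38 with a 95% interval of -0.15 to 0.91. Sema3d ranged from 8.93 to 10.16 in PRC2 loss tumors and from 8.41 to 10.53 in wildtype tumors, with overlapping groups and an interval of -0.64 to 1.61 for the difference. Sema3f, a ligand that prefers Nrp2, ranged from 10.52 to 10.97 in PRC2 loss tumors and from 9.58 to 10.70 in wildtype tumors. Only wildtype tumor 4 reached into the PRC2 loss range of Sema3f. The difference of 0.75 had a limma adjusted p of 0.067 with all tumors, of 0.0196 without wildtype tumor 4, at 0.92, and of 0.0309 with the tumors of an animal number averaged, at 0.79.

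The mixture of secreted semaphorins differed between the groups. When levels were divided by the exonic length of each gene in kb and summed over the 7 class 3 genes, Sema3a made up 0.391, 0.474 and 0.333% of the sum in PRC2 loss tumors, against 28.4, 13.8, 60.6, 59.3 and 47.9% in wildtype tumors. Sema3a held less than 1% of the sum in every PRC2 loss tumor, and its share varied widely among wildtype tumors. Sema3b made up 55.1, 58.9 and 43.1% in PRC2 loss tumors, against 29.5, 44.7, 7.73, 8.81 and 10.2% in wildtype tumors, so the groups overlapped for this share in wildtype tumor 2. Sema3g made up 19.6 ± 5.34% in PRC2 loss tumors and 4.26 ± 1.67% in wildtype tumors (SD, n = 3 and 5). The summed class 3 level itself, as log2 per kb, was 11.53 ± 0.18 in PRC2 loss tumors and 10.71 ± 0.28 in wildtype tumors. These shares are descriptions with no test.

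**Figure D2:**
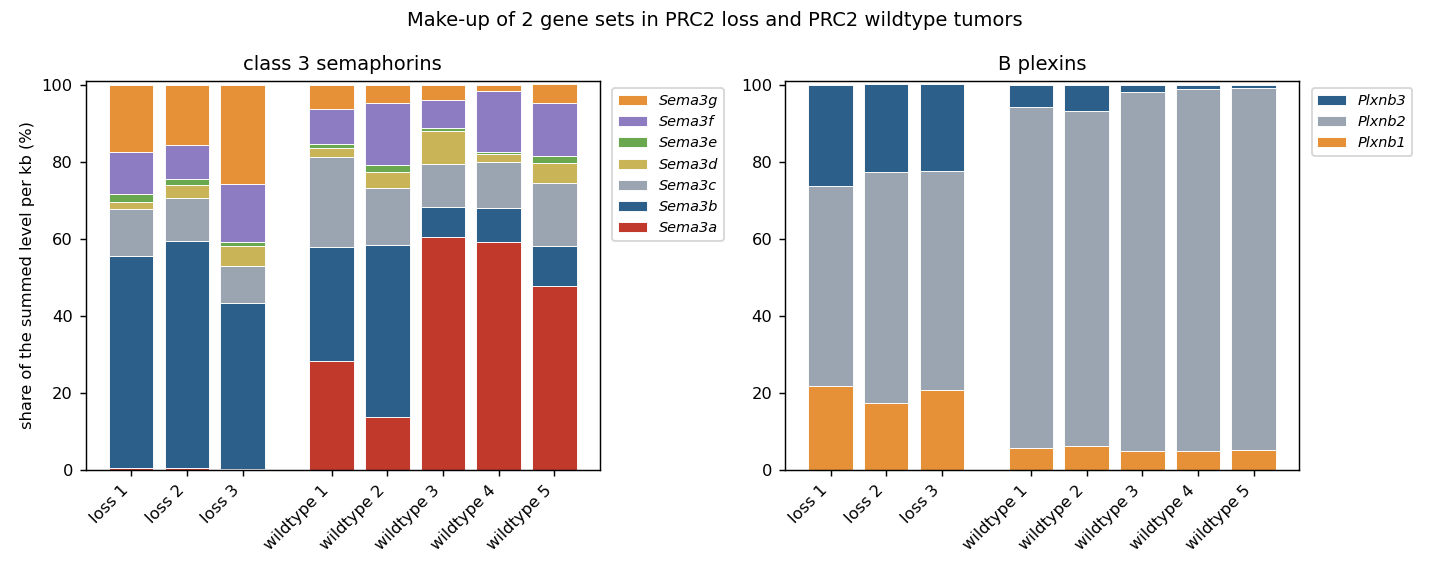
Share of the summed level per kb, in percent, taken by each class 3 semaphorin and by each B plexin in every tumor, with PRC2 loss tumors left of wildtype tumors. Sema3a takes 0.333 to 0.474% of the class 3 sum in PRC2 loss tumors and 13.8 to 60.6% in wildtype tumors, and Plxnb2 takes 52.0 to 59.8% of the B plexin sum in PRC2 loss tumors and 86.9 to 94.0% in wildtype tumors.

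Class 4 semaphorins are transmembrane proteins, and 2 of 6 rose and 1 fell. Sema4c, a ligand of Plxnb2, had log2 levels of 11.75, 11.87 and 11.85 in PRC2 loss tumors, against 10.88, 11.24, 10.88, 10.62 and 10.88 in wildtype tumors. The PRC2 loss tumors were close together and all above the wildtype tumors. The difference was 0.92 (SE 0.14, limma adjusted p = 0.00203), or 1.90-fold. Its exons overlap a gene on the opposite strand over 7.27% of their length, and whether reads were counted by strand is not given in the sources used here.

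Sema4g, which also binds Plxnb2, had log2 levels of 9.52, 10.02 and 10.02 in PRC2 loss tumors, against 7.37, 6.43, 8.49, 8.73 and 8.97 in wildtype tumors. The groups did not overlap, and wildtype tumors 1 and 2 were the lowest. The difference was 1.86 (SE 0.56, limma adjusted p = 0.0333), or 3.62-fold. It did not pass without wildtype tumor 1 (1.70, adjusted p = 0.0648), without PRC2 loss tumor 1 (2.02, adjusted p = 0.069) or without PRC2 loss tumor 2 or 3 (1.77, adjusted p = 0.104 for each). It did not pass with animal number as a random block (1.76, adjusted p = 0.0543) or with the tumors of an animal number averaged (1.61, adjusted p = 0.143). Without the tumors of animal number 8 it was smaller, at 1.12, and passed (adjusted p = 0.00861).

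Sema4b was the class 4 gene that fell. Its log2 levels were 9.02, 9.58 and 9.19 in PRC2 loss tumors, against 9.79, 9.86, 10.19, 10.05 and 10.89 in wildtype tumors. The groups were apart, with PRC2 loss tumor 2 close to the lowest wildtype tumors. The difference was -0.89 (SE 0.26, limma adjusted p = 0.0301), and the call did not hold without wildtype tumor 3 (-0.88, adjusted p = 0.0574), without PRC2 loss tumor 1 (-0.77, adjusted p = 0.107), without PRC2 loss tumor 3 (-0.86, adjusted p = 0.0906) or with housekeeping centring (-0.34, adjusted p = 0.303). With the tumors of an animal number averaged it was -1.07 and did not pass either (adjusted p = 0.0898).

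Sema4a and Sema4d, both known from immune cells, and Sema4f did not pass with all tumors. Sema4a ranged from 10.14 to 10.70 on the log2 scale in PRC2 loss tumors and from 9.47 to 11.77 in wildtype tumors (difference 0.15, limma adjusted p = 0.815). Without the tumors of animal number 8 its difference was 0.70 (adjusted p = 0.042). Sema4d, the main ligand of Plxnb1, ranged from 9.44 to 10.17 in PRC2 loss tumors and from 9.92 to 11.86 in wildtype tumors. Its groups overlapped, and the difference of -1.09 had a limma adjusted p of 0.0759, or 0.0364 without wildtype tumor 5 (-1.31).

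Sema4f, which in rat Schwann cells was linked to their contact with axons, split the wildtype tumors. Its log2 levels were 8.71, 9.32 and 8.52 in PRC2 loss tumors, against 10.24, 10.07, 6.96, 6.80 and 5.86 in wildtype tumors. Wildtype tumors 1 and 2 lay above all PRC2 loss tumors and wildtype tumors 3 to 5 below them. With all tumors the difference was 0.86 (95% interval -1.52 to 3.25, limma adjusted p = 0.558), and without the tumors of animal number 8 it was 2.31 (adjusted p = 0.00535).

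Class 5 semaphorins carry thrombospondin repeats, and both genes rose. Sema5b, which acts as a repellent for growing axons, had log2 levels of 9.43, 10.22 and 8.83 in PRC2 loss tumors, against 4.91, 5.98, 4.29, 4.09 and 3.51 in wildtype tumors. The wildtype tumors were all low, and none of them came within 2 log2 units of a PRC2 loss tumor. The difference was 4.94 (SE 0.60, limma adjusted p = 0.000800), or 30.6-fold. Sema5a, a ligand of Plxnb3 and, in the mouse retina, of Plxna1 and Plxna3, had log2 levels of 13.49, 13.14 and 12.44 in PRC2 loss tumors, against 11.18, 11.12, 11.86, 11.43 and 11.59 in wildtype tumors. All PRC2 loss tumors were above the wildtype tumors. The difference was 1.59 (SE 0.26, limma adjusted p = 0.00251), or 3.00-fold.

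Class 6 semaphorins span the membrane and act between neighbouring cells, and 3 of 4 rose. Sema6c had log2 levels of 10.02, 10.60 and 10.46 in PRC2 loss tumors, against 8.19, 8.28, 8.03, 7.57 and 8.26 in wildtype tumors, which is a wide gap beside the spread within either group. The difference was 2.29 (SE 0.22, limma adjusted p = 0.000331). Sema6b had 9.76, 9.56 and 10.18 in PRC2 loss tumors, against 8.34, 8.69, 8.23, 8.13 and 8.86 in wildtype tumors. The groups were again apart, with a difference of 1.38 (SE 0.23, limma adjusted p = 0.00278), or 2.61-fold.

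Sema6d, a ligand of Plxna1, had log2 levels of 12.27, 11.85 and 11.94 in PRC2 loss tumors, against 11.28, 11.73, 11.41, 10.90 and 11.41 in wildtype tumors. PRC2 loss tumor 2 and wildtype tumor 2 nearly met. The difference of 0.68 (SE 0.19, limma adjusted p = 0.0251) did not pass without wildtype tumor 1 (0.66, adjusted p = 0.0502), PRC2 loss tumor 1 (0.55, adjusted p = 0.0944) or PRC2 loss tumor 3 (0.72, adjusted p = 0.0581), nor with the tumors of an animal number averaged (0.73, adjusted p = 0.0518). Sema6a, a ligand of Plxna2 and Plxna4, ranged from 10.23 to 10.85 in PRC2 loss tumors and from 9.39 to 10.76 in wildtype tumors, with a 95% interval of -0.25 to 1.33 for its difference. Sema7a, the class 7 gene, is anchored to the membrane by a lipid and binds Plxnc1 and integrins. It ranged from 11.49 to 12.40 in PRC2 loss tumors and from 10.55 to 12.39 in wildtype tumors, with an interval of -0.77 to 1.18.

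**Figure D3:**
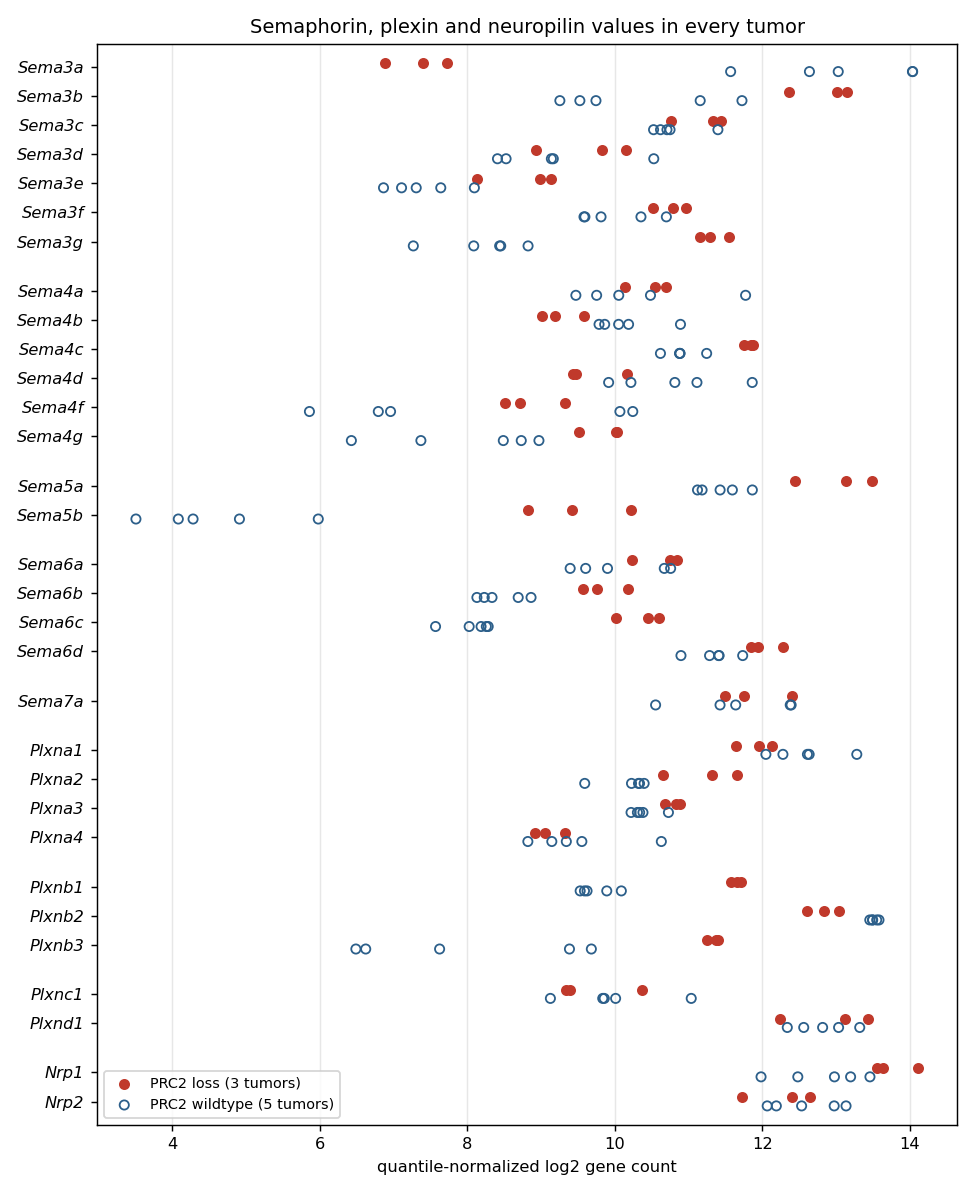
Deposited log2 level, on the horizontal axis, of each of the 31 genes in each of the 8 tumors. Within the row of a gene, PRC2 loss tumors are drawn just above wildtype tumors. Sema3a lies between 6.89 and 7.72 in PRC2 loss tumors and between 11.57 and 14.04 in wildtype tumors, while Sema5b lies between 8.83 and 10.22 in PRC2 loss tumors and between 3.51 and 5.98 in wildtype tumors.

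Levels of different genes can be set beside each other only per length, here that of the merged exons of all annotated transcripts of a gene. The transcripts present in these tumors may be shorter, so orders and shares between genes are approximate. As a mean log2 level per kb of exon, Sema3b led the 20 semaphorins in PRC2 loss tumors at 10.58, before Sema7a at 10.16 and Sema4c at 9.62, and Sema3a was last at 3.55. Sema3b and Sema7a lay within their spread, with SDs of 0.42 and 0.47, and in PRC2 loss tumor 3 Sema7a at 10.67 was above Sema3b at 10.11. In wildtype tumors Sema7a led at 9.95, Sema3a came next at 9.27 and Sema5b was last at 1.73. The SD over wildtype tumors was 0.76 for Sema7a and 1.04 for Sema3a, so the order of this leading pair was within their spread. The summed log2 level per kb of all semaphorins was 12.82 ± 0.03 in PRC2 loss tumors and 12.21 ± 0.19 in wildtype tumors (SD, n = 3 and 5).

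Among the receptors, 4 of the 9 plexins passed the test, or 44.4% beside 35.7% of all genes. They were all 3 B plexins and Plxna2, while 5 of the 6 other plexins did not pass. Plxnb1, the receptor of Sema4d, had log2 levels of 11.65, 11.58 and 11.70 in PRC2 loss tumors, against 9.89, 10.09, 9.59, 9.53 and 9.62 in wildtype tumors. Both groups were tight and far apart. The difference was 1.90 (SE 0.15, limma adjusted p = 0.000169), or 3.73-fold, the smallest adjusted p among the 31 genes.

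Plxnb3, the receptor of Sema5a, is known from oligodendrocytes in the brain. It had log2 levels of 11.37, 11.40 and 11.25 in PRC2 loss tumors, against 9.39, 9.68, 7.63, 6.62 and 6.49 in wildtype tumors. The PRC2 loss tumors were nearly equal, whereas wildtype tumors 1 and 2 were higher than wildtype tumors 3 to 5. The difference was 3.37 (SE 0.77, limma adjusted p = 0.0105), or 10.4-fold.

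Plxnb2, the receptor of Sema4c and Sema4g, fell. Its log2 levels were 12.60, 13.04 and 12.83 in PRC2 loss tumors, against 13.55, 13.58, 13.49, 13.45 and 13.49 in wildtype tumors. The 5 wildtype values lay within a narrow band above all PRC2 loss values. The difference was -0.69 (SE 0.13, limma adjusted p = 0.00414), and it was -0.14 (adjusted p = 0.494) with housekeeping centring. Per kb, Plxnb2 made up 52.0, 59.8 and 56.7% of the summed B plexin level in PRC2 loss tumors, against 88.5, 86.9, 93.1, 94.0 and 93.9% in wildtype tumors. The summed B plexin level per kb, on the log2 scale, was 10.71 ± 0.12 in PRC2 loss tumors and 10.70 ± 0.10 in wildtype tumors.

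Of the A plexins, the partners of neuropilins, Plxna2 rose. Its log2 levels were 11.66, 10.66 and 11.32 in PRC2 loss tumors, against 10.32, 10.40, 10.33, 9.59 and 10.23 in wildtype tumors. The groups did not overlap, though PRC2 loss tumor 2 lay close to the wildtype tumors. The difference of 1.04 (SE 0.26, limma adjusted p = 0.0163) did not pass without PRC2 loss tumor 1 (0.81, adjusted p = 0.0657) or PRC2 loss tumor 3 (0.98, adjusted p = 0.0606).

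Plxna1, Plxna3 and Plxna4 did not pass with all tumors. Plxna1 ranged from 11.64 to 12.13 on the log2 scale in PRC2 loss tumors and from 12.05 to 13.28 in wildtype tumors, a difference of -0.66 (limma adjusted p = 0.0841). Without wildtype tumor 2 it was -0.79 (adjusted p = 0.0371), and without the tumors of animal number 8 it was -0.93 (adjusted p = 0.0196). Exons of Plxna1 overlap a gene on the opposite strand over 10.7% of their length, so reads may be shared if strand was not used. Plxna3, a receptor with Plxna4 for class 3 signals in sensory and sympathetic axons, ranged from 10.68 to 10.89 in PRC2 loss tumors and from 10.22 to 10.73 in wildtype tumors, with wildtype tumor 3 the only one inside the PRC2 loss range. Its difference of 0.40 had a limma adjusted p of 0.0505 with all tumors and of 0.0175 without wildtype tumor 3, at 0.49. Plxna4 ranged from 8.92 to 9.32 in PRC2 loss tumors and from 8.82 to 10.63 in wildtype tumors, with an interval of -1.25 to 0.45.

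The C and D plexins had overlapping groups. Plxnc1, the receptor of Sema7a, ranged from 9.34 to 10.36 on the log2 scale in PRC2 loss tumors and from 9.13 to 11.04 in wildtype tumors, with an interval of -1.22 to 0.67 for the difference. Plxnd1, the endothelial receptor of Sema3e, ranged from 12.24 to 13.42 in PRC2 loss tumors and from 12.34 to 13.32 in wildtype tumors, with an interval of -0.59 to 0.81.

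Neuropilins bind both class 3 semaphorins and VEGF. Nrp1 had log2 levels of 13.55, 13.64 and 14.11 in PRC2 loss tumors, against 13.19, 13.46, 12.98, 12.48 and 11.98 in wildtype tumors. The groups did not overlap, but wildtype tumors 1 and 2 came close. The difference of 0.95 (SE 0.33) had a limma adjusted p of 0.0532 with all tumors, 0.025 without wildtype tumor 2 (1.11) and 0.0136 without the tumors of animal number 8 (1.29). Nrp2 ranged from 11.73 to 12.65 in PRC2 loss tumors and from 12.06 to 13.13 in wildtype tumors, with an interval of -1.01 to 0.38 for the difference. As a mean log2 level per kb, Nrp1 led the 11 receptors at 10.48 in PRC2 loss tumors, and Plxnb2 led at 10.56 in wildtype tumors. Plxnb3 stood sixth of the 11 at 8.64 in PRC2 loss tumors and last at 5.26 in wildtype tumors.

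Beyond the receptors themselves, a list of 62 other genes of the pathway split between the directions, with 13 higher and 14 lower in PRC2 loss tumors, or 43.5% called beside 35.7% of all genes. Of 18 co-receptors and other binding partners, 6 rose and 4 fell. Erbb2, a receptor tyrosine kinase that associates with B plexins, averaged 11.18 ± 0.16 on the log2 scale in PRC2 loss tumors and 9.83 ± 0.12 in wildtype tumors, a difference of 1.35 (limma adjusted p = 0.000274). Flt1, a VEGF receptor that partners neuropilins, averaged 12.33 ± 0.58 in PRC2 loss tumors and 10.35 ± 0.56 in wildtype tumors (1.97, adjusted p = 0.00424). Cntn2, an axonal adhesion molecule, averaged 6.41 ± 0.82 in PRC2 loss tumors and 1.32 ± 1.09 in wildtype tumors, among which tumor 5 was listed at 0 (5.09, adjusted p = 0.00126). The partners that fell included Cd44, a hyaluronan receptor, with 10.97 ± 0.23 in PRC2 loss tumors and 13.42 ± 0.43 in wildtype tumors (-2.45, adjusted p = 0.00038). Cd72, a receptor for Sema4d on immune cells, averaged 7.03 ± 1.16 in PRC2 loss tumors and 10.79 ± 0.63 in wildtype tumors (-3.76, adjusted p = 0.00144).

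None of the 5 VEGF ligands passed the limma test in the higher direction, where 1 had an unadjusted p below 0.05, and 2 fell. The log2 level of Vegfd averaged 7.29 in PRC2 loss tumors and 8.86 in wildtype tumors (limma adjusted p = 0.0226), and Vegfb averaged 9.15 in PRC2 loss tumors and 10.14 in wildtype tumors (adjusted p = 0.0425). Of 7 proteases that cut semaphorins or their receptors, 1 rose and 3 fell. Pcsk6, a proprotein convertase, averaged 10.10 ± 0.27 in PRC2 loss tumors and 8.15 ± 0.45 in wildtype tumors (1.95, adjusted p = 0.00146). Adam17 averaged 11.56 in PRC2 loss tumors and 12.07 in wildtype tumors (adjusted p = 0.0237), Mmp14 14.53 in PRC2 loss tumors and 15.29 in wildtype tumors (adjusted p = 0.0443), and Furin 12.15 in PRC2 loss tumors and 12.76 in wildtype tumors (adjusted p = 0.0488). With housekeeping centring none of the 5 genes that fell passed. Vegfd did not pass without PRC2 loss tumor 1 (-1.32, adjusted p = 0.0877) or 2 (-1.44, adjusted p = 0.0819), nor Adam17 without PRC2 loss tumor 2 (-0.53, adjusted p = 0.0582) or 3 (-0.36, adjusted p = 0.066). Mmp14 passed only when wildtype tumor 2 was the tumor left out, Furin only when wildtype tumor 2 or PRC2 loss tumor 2 was, and Vegfb only when wildtype tumor 2 or PRC2 loss tumor 3 was. In the other cases their differences were -0.63 to -0.89 for Mmp14, -0.47 to -0.64 for Furin and -0.62 to -1.13 for Vegfb. With the tumors of an animal number averaged, Vegfb, Adam17, Mmp14 and Furin did not pass either, at adjusted p-values of 0.0687 to 0.115.

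Of 32 genes that carry the signal inside the cell, 6 rose and 5 fell, which is 34.4%, close to the 35.7% over all genes. Mical1 and Mical3 belong to a family of enzymes that oxidize actin. Mical3 averaged 12.04 ± 0.06 on the log2 scale in PRC2 loss tumors and 9.95 ± 0.29 in wildtype tumors (2.09, limma adjusted p = 0.000184), and Mical1 averaged 11.50 ± 0.30 in PRC2 loss tumors and 9.88 ± 0.64 in wildtype tumors (1.62, adjusted p = 0.00852). Farp2, an exchange factor for Rac that binds A plexins, averaged 9.65 ± 0.19 in PRC2 loss tumors and 8.48 ± 0.19 in wildtype tumors (1.17, adjusted p = 0.00166). Dpysl3, a collapsin response mediator of the family through which Sema3a acts on the cytoskeleton, averaged 12.28 ± 0.29 in PRC2 loss tumors and 14.61 ± 0.40 in wildtype tumors (-2.33, adjusted p = 0.000479). Its family did not move as one. Crmp1 fell too (-2.84, adjusted p = 0.0193), and Dpysl4 rose (5.76, adjusted p = 0.0129), with wildtype tumor 5 listed at 0. Dpysl2 and Dpysl5 did not pass. These other family members are named after their values were seen. Cfl1, the actin-cutting protein cofilin, averaged 13.66 ± 0.22 in PRC2 loss tumors and 15.09 ± 0.22 in wildtype tumors (-1.44, adjusted p = 0.000922).

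The tumors also differed in markers of the cell types they may hold, given here as the log2 of the summed level of each list. Counts of markers that passed the limma test stand beside 16% of all genes higher and 19.6% lower. The Schwann list, led by Pmp22 and Mbp, summed to 17.46 to 18.33 in PRC2 loss tumors and 12.33 to 14.96 in wildtype tumors, with 8 of 10 markers higher. The endothelial list, led by Cdh5 and Pecam1, summed to 15.33 to 16.17 in PRC2 loss tumors and 13.39 to 14.14 in wildtype tumors, with 8 of 10 markers higher. Neither list had a marker at 0 in any tumor. The semaphorins and plexins that rose were called for being higher in PRC2 loss tumors, so their overlap with these lists follows from that call. Nrp1, which did not pass, was also higher in PRC2 loss tumors. The part of Schwann and endothelial cells in those results was not tested. The perineurial list, led by Tjp1 and Itgb4, summed to 15.37 to 15.73 in PRC2 loss tumors and 12.82 to 13.67 in wildtype tumors, with 5 of 6 higher and Lypd2 at 0 in at least 1 tumor. The macrophage list, led by C1qa and C1qb, summed to 15.15 to 15.58 in PRC2 loss tumors and 15.84 to 17.00 in wildtype tumors, with 7 of 10 markers lower. The macrophage marker Cd163, a scavenger receptor, was higher instead, at 11.49 ± 0.61 on the log2 scale in PRC2 loss tumors and 8.24 ± 1.15 in wildtype tumors (3.25, limma adjusted p = 0.00543), and is named after its values were seen. The T and NK cell list, led by Cd4 and Cd8a, summed to 8.13 to 9.78 in PRC2 loss tumors and 10.65 to 12.41 in wildtype tumors, with 8 of 9 lower. The values of Cd72, Sema4b and Sema4d were lower on average in the same tumors, and the part of immune cells in them was not tested. Within the wildtype group, tumors 1 and 2 had the highest macrophage sums and the highest T and NK cell sums. They also had the highest wildtype values of Cd72 (11.30 and 11.21) and Sema4d (11.11 and 11.86). Their Sema4b values, 9.79 and 9.86, were instead the lowest of the wildtype group.

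Fibroblast markers, led by Col3a1 and Col1a1, summed to 19.16 to 19.68 in PRC2 loss tumors and 18.55 to 19.54 in wildtype tumors, with 2 of 8 higher. Pericyte and smooth muscle markers, led by Rgs5 and Pdgfrb, summed to 15.26 to 17.66 in PRC2 loss tumors and 13.45 to 15.13 in wildtype tumors. Here 2 of 7 were higher, or 28.6%, beside the same shares of all genes. Neuronal markers, led by Map2 and Stmn2, summed to 11.19 to 11.50 in PRC2 loss tumors and 12.02 to 13.62 in wildtype tumors. Of this list 2 of 7 were higher and 1 lower, or 42.9% called, and Snap25 was at 0 in at least 1 tumor. The list did not move as one, and 4 of the 7 had a difference above 0. Stmn2 averaged 6.78 in PRC2 loss and 11.63 in wildtype tumors (limma adjusted p = 0.00215). Map2 averaged 10.78 in PRC2 loss and 9.29 in wildtype tumors and did not pass (adjusted p = 0.0612). None of 8 skeletal muscle markers passed the limma test, and 0 had an unadjusted p below 0.05.

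Wildtype tumors 1 and 2, which share animal number 8, stood apart from the other wildtype tumors in these markers and in many of the 31 genes. Skeletal muscle sums, led by Tnnt3 and Myh4, were 7.72 to 12.70 in PRC2 loss tumors, against 16.24 and 15.88 in wildtype tumors 1 and 2 and 7.72 to 9.0 in wildtype tumors 3 to 5. Their Schwann sums were 14.88 and 14.96, beside 12.33 to 12.93 in wildtype tumors 3 to 5. Sema3b, Sema4a, Sema4d, Sema4f, Sema5b, Plxnb1, Plxnb2, Plxnb3, Plxnd1 and Nrp1 were higher in these 2 tumors than in any other wildtype tumor. Sema3a, Sema4b, Sema4g, Sema5a, Sema6a, Plxna1, Plxna3 and Nrp2 were lower in both. Some of these margins were small. Sema3a was at 12.64 and 11.57 in these 2 tumors and between 13.03 and 14.04 in wildtype tumors 3 to 5. Without wildtype tumors 1 and 2, 16 of the 31 genes were higher and 4 lower in PRC2 loss tumors. In the same fit, 16.6% of all genes were higher and 21.5% lower. This pair was set aside after its values had been seen.

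**Figure D4:**
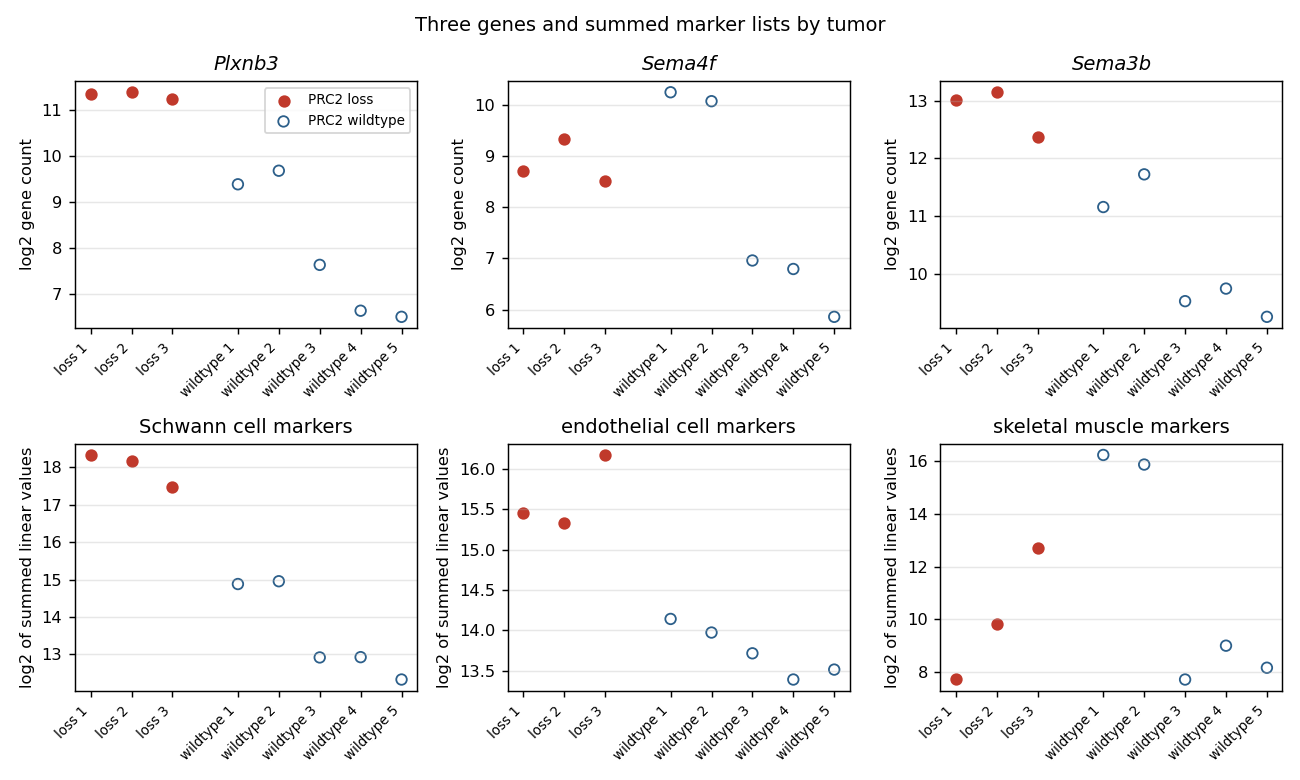
Log2 levels of Plxnb3, Sema4f and Sema3b and the log2 summed levels of Schwann, endothelial and skeletal muscle markers in each tumor, with PRC2 loss tumors left of wildtype tumors. Wildtype tumors 1 and 2 hold the highest wildtype values of the 3 genes and of the Schwann, endothelial and skeletal muscle sums.

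Promoter windows from RefSeq were used for 26 of the 31 genes, and none for Sema3b, Sema3f, Sema6a, Plxna1 and Plxna4. The 12 genes that were higher had 16 windows with a median of 15 CG dinucleotides (0 to 30), the 3 that were lower had 5 windows with a median of 20 (2 to 23), and 11 that did not pass had 16 windows with a median of 8.5 (1 to 39). Over all windows the quartiles were 2 and 16. The letters GGGCGG, searched on both strands, were in at least 1 window of 10 of the 12 higher genes, 2 of the 3 lower genes and 9 of the 11 others, and in 32.7% of all windows. ACAAAG was found for 2 higher genes, 1 lower gene and 2 others, beside 16.5% of all windows, and TATAAA for none, beside 12.4% of all windows. Among the windows printed above, Sema3a and Plxnb3 hold ACAAAG, while Sema3g, Sema6c and Sema5a hold GGGCGG. The counts are of genes, some with several windows, while the shares are of single windows. A gene with several windows has more chances of a match, so counts and shares cannot be compared directly. A match is a run of letters and not a binding site, and these counts carry no test.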

How the data were processed

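Trizol RNA was made into poly-A TruSeq libraries, per the labels' protocols. Trim Galore, STAR 2.6, Partek 7.0 and build mm10 were used, per the submitters' processing notes. How reads were counted, by which annotation and by which strand, is not given in the sources used here. What the authors deposited are quantile-normalized log2 gene counts, whose scaling removes library totals, so depth and counting error are unknown. The offset before the log is not stated, so folds of low genes are uncertain.

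Groups follow the PRC2 status that each title gives. After 136 constant genes were left out, 20807 genes were fitted in limma 3.58.1 (R 4.3.3) with trended empirical Bayes variances, with two-sided p-values adjusted by Benjamini-Hochberg over all of them and a threshold of 0.05. The fit was tested on simulated data. Exonic lengths, over the merged exons of all annotated transcripts of a gene, came from GENCODE M21, and promoters from RefSeq on GRCm38.p6. Alternatives covered pseudocounts, filters, variance priors, centring, animal numbers and leaving out each tumor.

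The genes and lists were chosen with earlier results of these data known. All 31 genes are named. Of each other pathway list, up to 5 genes with the smallest p among those past the threshold are named, and of each marker list the 2 with the highest mean. Genes named beyond this rule, after their values were seen, are marked as such in the text. Counts of lists carry no test.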

Additional observations from a re-analysis of the deposited data

Results flagged for a closer look

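In the wildtype group, 2 of 50 genes checked had a tumor that stood further from the others than Dixon's 95% limit of 0.71 allows for 5 samples. Sema3c was at 11.40 on the log2 scale in wildtype tumor 1, with the other wildtype tumors between 10.52 and 10.75, a gap of 0.744 of the group's range. Plxna2 was at 9.59 in wildtype tumor 4, with the other wildtype tumors between 10.23 and 10.40, a gap of 0.788 of the range. Chance flags about 5% of groups, so 2 of 50 is no more than chance gives. The PRC2 loss group has 3 tumors and was not tested in this way.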

How the results depend on the processing

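Over 20 alternatives, 7 of the 16 called genes passed in every one that gave them a value (Sema3a, Sema3b, Sema3g, Sema4c, Sema5b, Sema6c and Plxnb1), and 6 of the 15 others passed in none (Sema3d, Sema7a, Plxna4, Plxnc1, Plxnd1 and Nrp2). Leaving out each tumor in turn gave 9 to 14 of the 31 genes higher, 2 to 4 lower and 5528 to 7697 genes called in all. The 7424 genes called became 4276 when genes below the median mean were left out, which tests fewer genes, and 4226 when tumors of an animal number were averaged, which leaves fewer samples. Averaging gave 11 of the 31 genes as higher and 2 as lower, and 16 other pathway genes, against 27. Housekeeping centring gave 1 of the 31 genes as lower, and the Adam17 difference became 0.0365 (limma adjusted p = 0.9). The cause was not tested. The low filter gave no value for Sema3e, Sema4f or Sema5b. Sema3a shares of the class 3 sum with pseudocounts, chosen after seeing the data, ranged from 0.402 to 0.436% in PRC2 loss tumors and from 41.6 to 42.0% in wildtype tumors.

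Replicate numbers are not stated to pair tumors. The deviations of same-numbered tumors correlated at -0.155, 0.095 and -0.048, and not every tumor correlated best with its own number. With the replicate number as a block, the fit called 1903 genes, 6 of the 31 genes as higher and 1 as lower, and 8 other pathway genes. Depth is unknown, so no limit from counting can be given.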
